A study of Mus musculus with 5 samples.

Results

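The matrix metalloproteinases (MMP), the ADAMTS proteases and their TIMP inhibitors were examined on 5 mouse arrays. Members were the genes whose symbol in the platform annotation begins with Mmp, Adamts or Timp followed by a number. The rule took 48 probes for 43 of the 19084 genes measured, of which 21 were MMP genes, 18 ADAMTS genes and 4 TIMP genes. No measured value entered the rule. For the 4 members with several probes the brightest probe on average stood for the gene. Mmp15, Mmp1b and Adamts2 were not analysed here. The study asked how far fibroblasts given defined factors approach Leydig cells, the androgen-producing cells of the testis. MEF is 1 array of fibroblasts from mouse embryos at 13.5 days, without head and viscera, transduced with a mock vector. iLC, named induced Leydig-like by the submitters, is 2 arrays of such fibroblasts that received Dmrt1, Gata4 and Nr5a1 by lentivirus (12 hours of exposure) and a medium that contained PDGFAA at 10 ng/ml and IGF at 50 ng/ml. Leydig is 2 arrays of cells isolated from testes of mice aged 56 days. The labels name no strain, no culture time for iLC and no medium for the mock-transduced cells. They also leave unsaid whether arrays of a pair stem from different cultures or animals. Each p-value therefore reflects the spread within the iLC and Leydig pairs, moderated over all genes, and nothing wider. The single MEF array adds no spread to it.

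MMPs are zinc proteases that cut collagens, gelatins, fibronectin and other proteins of the extracellular matrix and release growth factors from it. Most are secreted as inactive proenzymes and some are anchored in the plasma membrane. ADAMTS proteases are secreted, carry thrombospondin-type repeats, and trim procollagens or cut large proteoglycans such as versican and aggrecan. TIMPs bind the active site of MMPs, and TIMP3 also blocks ADAM and ADAMTS enzymes. In culture, fibroblasts are a classical source of these enzymes, while in the testis they act in the remodelling of tubules and interstitium.

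Intensities are linear, and levels of different probes cannot be set against each other. Array medians were 1111 to 1230 and the 1st percentile ran from -10.1 to 83.8, so a dim probe can differ between arrays by the array's low end. Of the members, 26 read above the median of all probes on at least 1 array, 17 stayed below it on every array and 7 of these stayed below the 25th percentile on every array (Mmp7, Mmp12, Mmp20, Mmp25, Mmp28, Adamts18 and Timp2, at 2.25 to 251). The probes of the delivered factors were not higher in iLC than in MEF by limma's test: Nr5a1 read 1265 in MEF against 1509 and 1158 in the iLC pair (adjusted p = 0.964), Gata4 6773 against 4127 and 3150 (adjusted p = 0.368), and Dmrt1 396.6 against 333 and 427 (adjusted p = 0.954). Whether these probes lie in the delivered stretch of each gene is not given, so they do not check the label. Among all genes, 0.571% were called (limma's adjusted p under 0.05) between iLC and MEF. Between iLC and Leydig cells 5.74% were called higher and 5.69% lower in iLC. Between Leydig cells and MEF it was 3.39% higher and 3.99% lower in Leydig cells. Of 7 measured Leydig cell markers, 1 was called between iLC and MEF, the steroid enzyme gene Hsd3b1 (829.9 in MEF against 27160 and 34513 in the iLC pair, adjusted p = 0.0331). Star, the cholesterol transporter gene, read 695 against 56878 and 73892 without passing (adjusted p = 0.107). Cyp17a1 read 2344 against 1382 and 2351 (adjusted p = 0.885). On the Leydig pair Star read 1368 and 19703, wide apart and below both iLC arrays. Its iLC minus Leydig difference of 3.63 ± 1.13 did not pass (adjusted p = 0.0991). Of the 7 markers, that comparison called 4, Cyp17a1 and Hsd3b1 among them, all with the iLC pair below the Leydig pair. The Leydig arrays carried Nr5a1 (68030.1 and 44721) and Gata4 (71888 and 50891) far above the other arrays, although Cyp11a1 stayed at 907.1 or lower on all 5. Summed over 8 germ cell markers, intensity was 22174 and 375563 on Leydig replicates 1 and 2, and 4845 to 6328 on the others. That sum followed Prm1, Prm2, Tnp1 and Tnp2, while Ddx4 was level at 2668 to 4360. In the list 1 marker, Dazl, was called higher in Leydig cells than in MEF and 0 lower. Of 9 Sertoli cell markers, Aard and Cldn11 were higher in Leydig cells than in MEF and Inhbb was lower. Of 6 endothelial markers, Cdh5 was called higher there (771 in MEF, 10224 and 6400 in the Leydig pair) and Emcn lower. Summed over 9 fibroblast markers, intensity was 1034041 in MEF, 558513 and 443619 in the iLC pair, and 317822 and 146532 in the Leydig pair. The list was split, with 1 marker called higher and 4 lower in Leydig cells than in MEF. Between iLC and Leydig cells 4 were called higher (Fn1, Postn, Thy1 and Prrx1) and 2 lower (Pdgfra and Twist1). Fn1, with the largest of these differences, read 218059 in MEF, 169821 and 104543 in the iLC pair, and 1039 and 673 in the Leydig pair. Pdgfra, the largest part of both Leydig sums, read 15980 in MEF, 28814 and 20535 in the iLC pair, and 180686 and 92654 in the Leydig pair. Summed over 5 smooth muscle and peritubular markers, intensity was 570063, then 520481 and 460732, then 31300 and 47924. Such sums follow the brightest probes, here Acta2 (466436 in MEF, 493313 and 439352 in the iLC pair). Each of the others read lower on both iLC arrays than in MEF, such as Tagln at 16654 and 14561 against 73587, with 0 called. The fibroblast and smooth muscle sums, like Mmp2, Mmp3, Timp1 and Timp3, were lowest on the Leydig arrays. Summed over 11 macrophage and leukocyte markers, intensity was 170287 in MEF, 44915 and 91092 in the iLC pair, and 23953 and 23561 in the Leydig pair. Of these, 7 were called lower in Leydig cells than in MEF and 0 higher, with the largest differences for Lyz1, C1qb and C1qa. Ptprc did not follow the sum, at 3557 in MEF, 2271 and 3059 in the iLC pair, and 3077 and 4324 in the Leydig pair. The part of these cells in the results below was not tested, and in bulk RNA fewer cells of a type and less RNA per cell cannot be told apart.

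**Figure D1:**
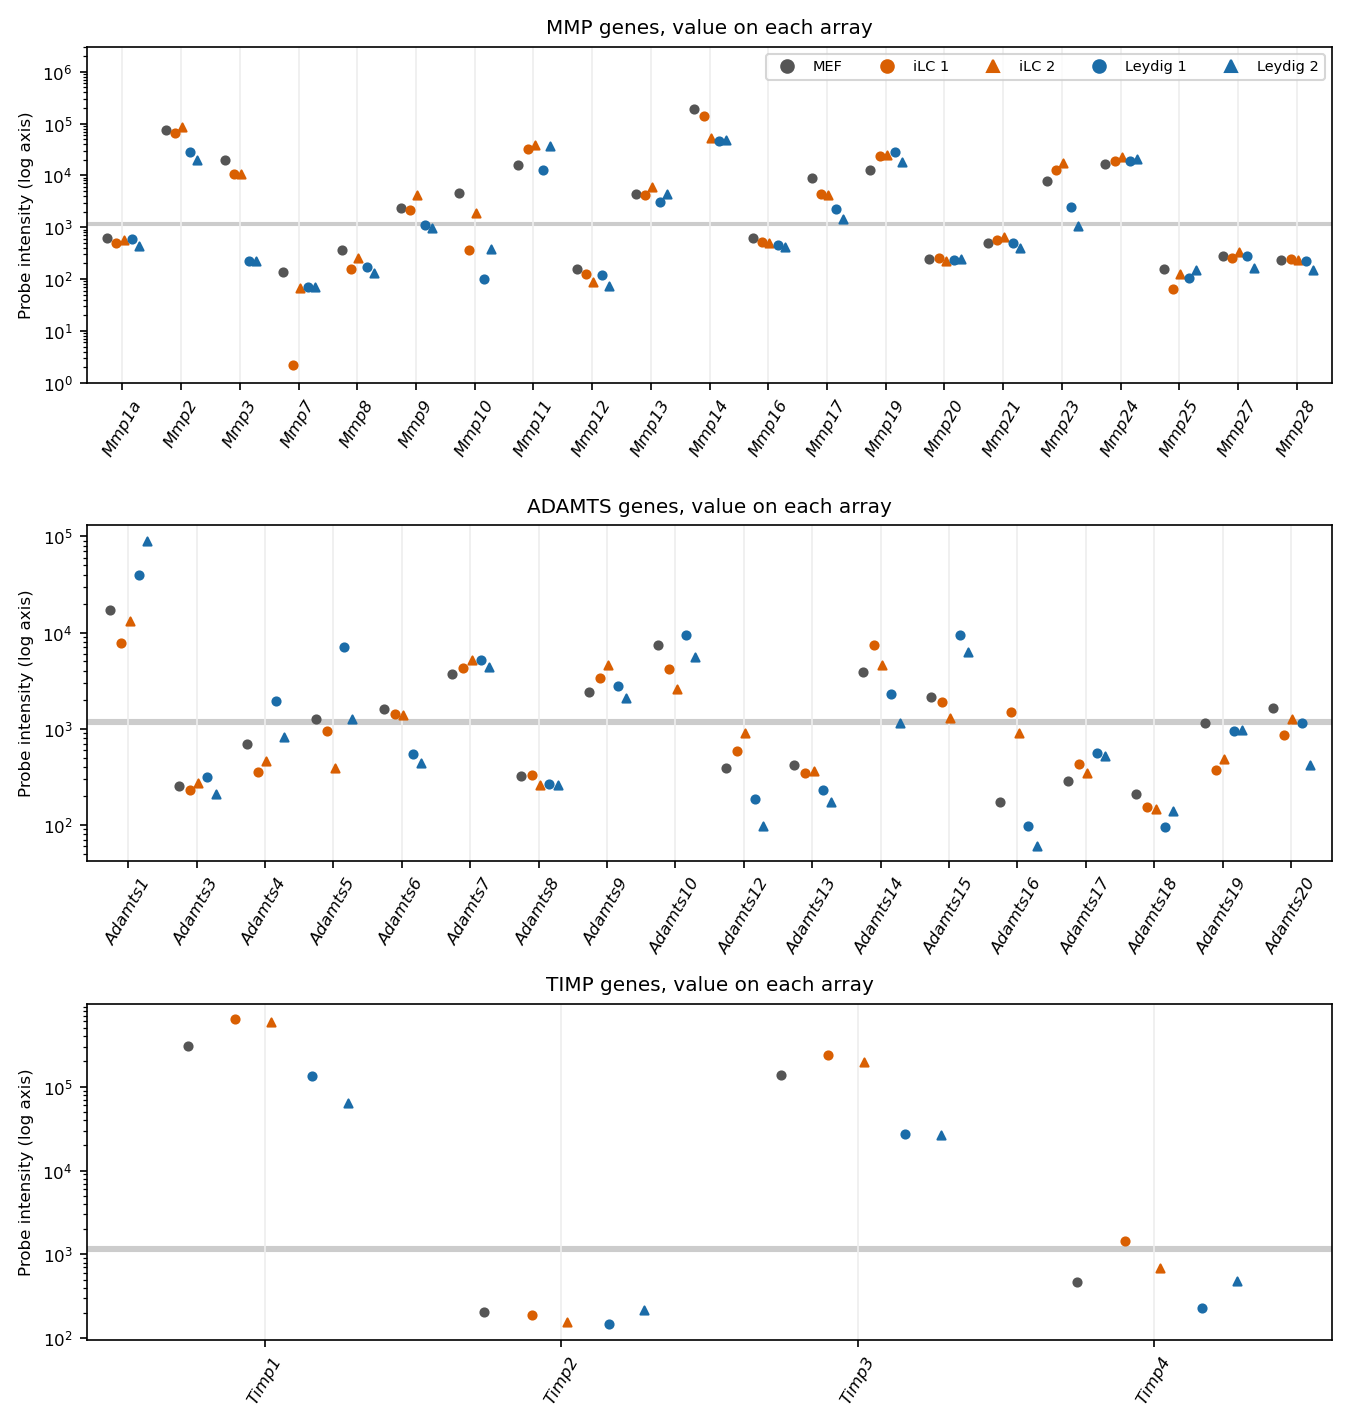
Probe intensity (log axis) of every MMP, ADAMTS and TIMP gene on each of the 5 arrays, 1 point per array, with circles for replicate 1 and triangles for replicate 2. The grey band spans the array medians (1111 to 1230). Mmp3, Timp1 and Timp3 read lower on both Leydig arrays than on the other 3, and Adamts1 and Adamts15 higher.

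The iLC and Leydig arrays differed in 10 of the 43 members. Mmp2, Mmp3, Mmp23, Adamts6, Adamts12, Adamts16, Timp1 and Timp3 were higher in iLC, and Adamts1 and Adamts15 were lower. A gene is called here when limma's adjusted p, with Benjamini-Hochberg adjustment over all genes, was under 0.05. Differences are on the log2(value + 16) scale. The added 16 shrinks those of dim genes, and the unequal low ends of the arrays can move them either way. The members called were 23.3% of the list, against 11.4% of all genes (5.74% higher and 5.69% lower). The median difference of the members was 0.38, and that of all genes was -0.03. Among MMP genes 3 rose and 0 fell of 21, among ADAMTS genes 3 rose and 2 fell of 18, and among TIMP genes 2 rose and 0 fell of 4. Both iLC arrays lay above both Leydig arrays for 19 members and below them for 8, against 28.9% and 29% of all genes. Mmp3 and Timp3 kept their calls under all 15 alternative settings run for them. The other 8 calls were each lost when at least 1 array was left out, and all 8 were lost without Leydig replicate 2. The share of members called then came close to that of all genes, in a fit with 1 Leydig array. Leaving out that array also moved the difference of Adamts1 from -2.55 to -1.95 and that of Mmp23 from 3.18 to 2.58.

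**Figure D2:**
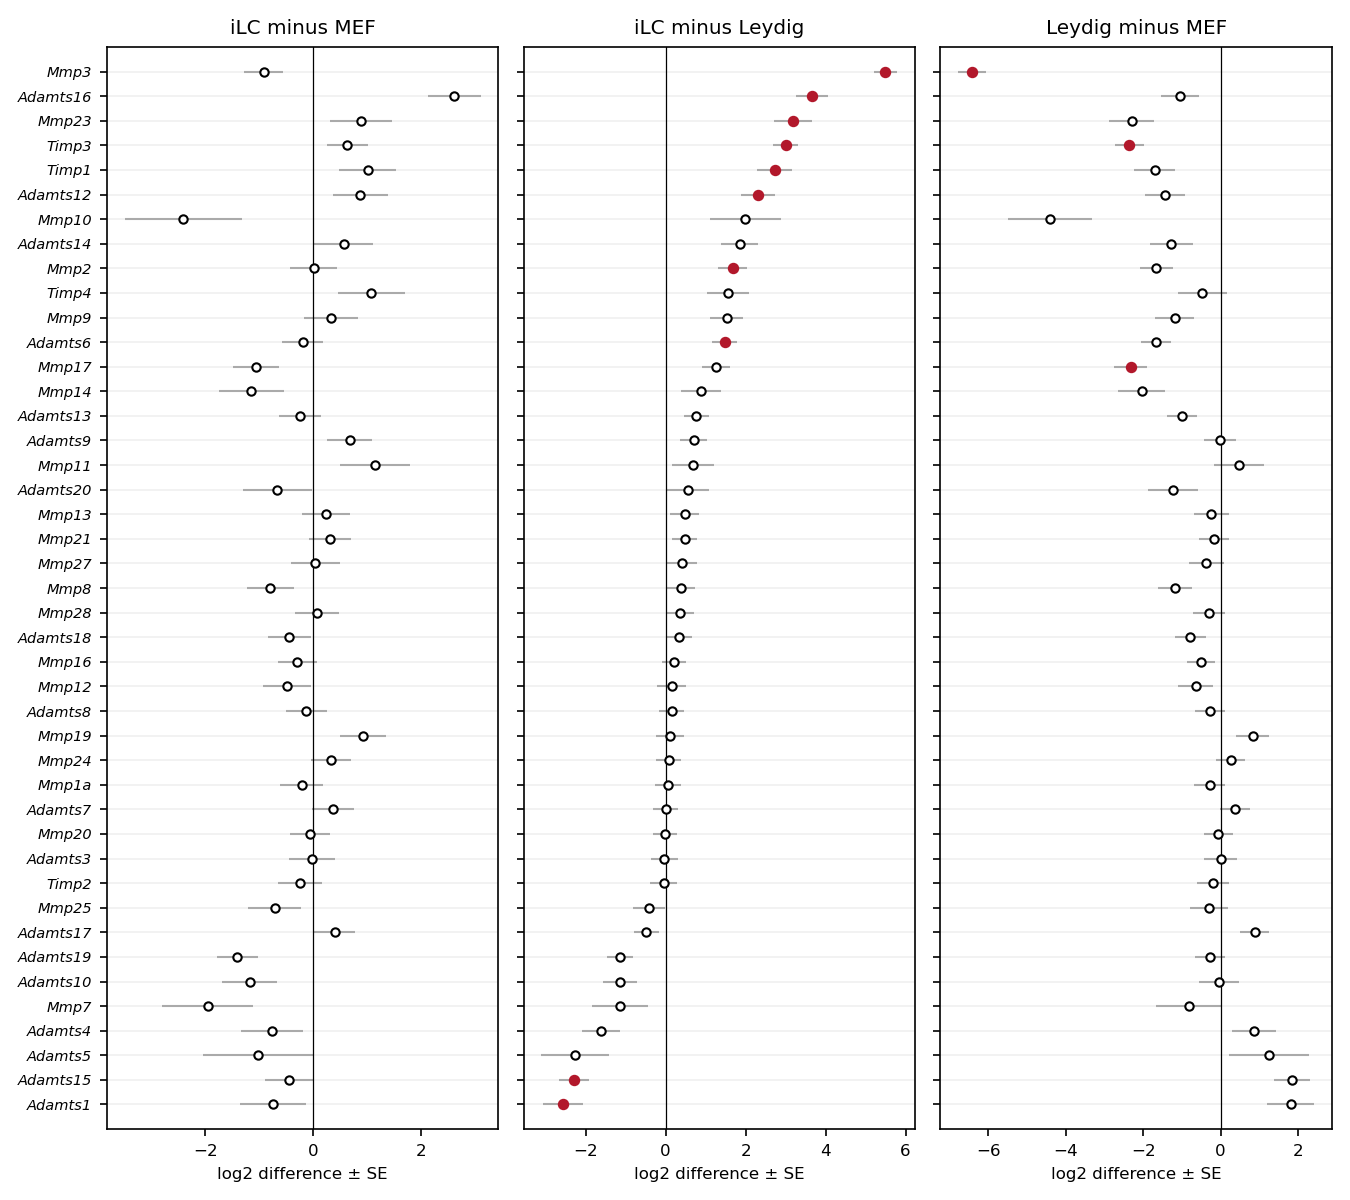
Difference of each member on the log2(value + 16) scale with its standard error, for iLC minus MEF, iLC minus Leydig and Leydig minus MEF. Genes are ordered by the middle comparison, and filled red points are genes with an adjusted p under 0.05 over all genes. There are 0, 10 and 3 such members, and the left and right panels share the single MEF array.

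The stromelysins held the member with the largest difference, in both comparisons with Leydig cells. Mmp3 (stromelysin-1), which cuts many matrix proteins and activates other proMMPs, read 20161 in MEF, 10666 and 10736 in the iLC pair, and 218 and 224 in the Leydig pair. The fibroblast-derived arrays were high and close within the iLC pair, and both Leydig arrays sat near the 20th percentile of their array. The difference was 5.50 ± 0.30 (SE, adjusted p = 0.00101) between iLC and Leydig cells, and -6.41 ± 0.36 (adjusted p = 0.00137) between Leydig cells and MEF. Its paralogue Mmp10 (stromelysin-2) read 4503 in MEF, 357 and 1922 in the iLC pair, and 102 and 372 in the Leydig pair. The MEF array was the highest, the pairs were wide apart, and iLC and Leydig overlapped. Accordingly none of its differences passed, at -2.41 ± 1.09 for iLC minus MEF (adjusted p = 0.352), 1.99 ± 0.89 for iLC minus Leydig (adjusted p = 0.216) and -4.40 ± 1.09 for Leydig minus MEF (adjusted p = 0.0687). Mmp11 (stromelysin-3) read 15841 in MEF, 32661 and 38118 in the iLC pair, and 12915 and 37056 in the Leydig pair. Its Leydig values spanned nearly all the others, and its difference between iLC and MEF of 1.15 ± 0.65 did not pass (adjusted p = 0.452).

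Mmp3 and Mmp10 belong to a cluster on chromosome 9 in which 10 MMP genes follow each other with no other protein-coding gene among them in the RefSeq gene table (GRCm38.p6). Of these, 9 were measured: the collagenases Mmp13, Mmp8 and Mmp1a, the elastase Mmp12, the matrilysin Mmp7, Mmp27 and the enamel protease Mmp20, beside both stromelysins. Many promoters of this cluster are known for a binding site of AP-1, the Fos and Jun dimer. The 250 bases before each start in RefSeq (GRCm38.p6, matched for 29 of 43 members) were therefore searched on both strands for TGACTCA, whose reverse complement is TGAGTCA. The letters were found for 6 members, 6 of the 9 in the cluster and 0 of the other 20, against 5.16% of all genes with a window and 4.46% of all windows. Letters for 2 of the 3 delivered factors were also searched, and none for Dmrt1. CAAGGTCA, for the NR5A family, was found for 0 of 29 members and 1.51% of all genes. AGATAA, for the family of the delivered Gata4, was found for 3 of 29 members, Mmp7, Mmp24 and Mmp27, and 11.4% of all genes. A match is a run of letters and not a measured site. The last 100 bases before the start are printed for the 6 genes to show where the AP-1 letters, in capitals, lie:
Mmp13 (chr9:7272414-7272513, + strand): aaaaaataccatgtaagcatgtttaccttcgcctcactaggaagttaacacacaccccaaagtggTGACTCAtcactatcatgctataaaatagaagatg
Mmp12 (chr9:7347274-7347373, + strand): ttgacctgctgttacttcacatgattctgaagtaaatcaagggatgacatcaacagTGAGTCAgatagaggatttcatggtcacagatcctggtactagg
Mmp3 (chr9:7445722-7445821, + strand): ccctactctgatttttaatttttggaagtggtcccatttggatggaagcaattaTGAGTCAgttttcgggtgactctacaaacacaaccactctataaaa
Mmp1a (chr9:7464041-7464140, + strand): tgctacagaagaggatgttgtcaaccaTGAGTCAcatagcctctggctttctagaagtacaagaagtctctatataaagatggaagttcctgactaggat
Mmp10 (chr9:7502242-7502341, + strand): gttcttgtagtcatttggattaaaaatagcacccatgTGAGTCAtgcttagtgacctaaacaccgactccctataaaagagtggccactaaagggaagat
Mmp7 (chr9:7691990-7692089, + strand): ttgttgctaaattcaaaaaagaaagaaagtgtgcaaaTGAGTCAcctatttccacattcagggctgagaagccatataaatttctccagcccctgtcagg

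The AP-1 letters began between 35 and 73 bases before the start in all 6, and TATAAA also occurred in the printed stretch of every one but Mmp12. Their readings nevertheless had no common pattern. Mmp13 (collagenase-3), a cutter of fibrillar collagen, read 4291 in MEF, 4209 and 6094 in the iLC pair, and 3014 and 4366 in the Leydig pair, so that all 3 groups overlapped. Mmp12, Mmp1a and Mmp7 stayed below the array median everywhere. Mmp12 read 73.1 to 155, Mmp1a 431 to 610.2 and Mmp7 2.25 to 136. The lowest Mmp7 value, on iLC replicate 1, lay at the 1.88th percentile of its array, and its differences of -1.96 ± 0.85 (iLC minus MEF, adjusted p = 0.337) and -1.14 ± 0.69 (iLC minus Leydig, adjusted p = 0.361) did not pass. They depended on the pseudocount, at -3.19 and -2.25 with log2(value + 1) and at -1.10 and -0.52 with log2(value + 64), and without iLC replicate 1 were -0.85 and -0.037. The 3 cluster genes without the letters were dim as well, Mmp8 at 132 to 359 (Leydig minus MEF -1.17, adjusted p = 0.206), Mmp27 at 166 to 335 and Mmp20 at 219 to 251. Mmp3 was thus the one cluster member called in any comparison. For the AP-1 genes themselves, Fosl1 read 20038 in MEF, 24561 and 38499 in the iLC pair, and 5643 and 15821 in the Leydig pair, and Jun 32522, then 44076 and 23340, then 12798 and 15802. Both were lower on the Leydig pair without passing (iLC minus Leydig 1.70 ± 0.55, adjusted p = 0.107, and 1.17 ± 0.40, adjusted p = 0.127). Fosb and Junb were also lower there than in iLC without passing. Fos, Fosl2 and Jund overlapped between iLC and Leydig cells, with Fos and Jund highest on Leydig replicate 2 at 26307 and 70960. A link of these genes to Mmp3 was not tested.

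**Figure D3:**
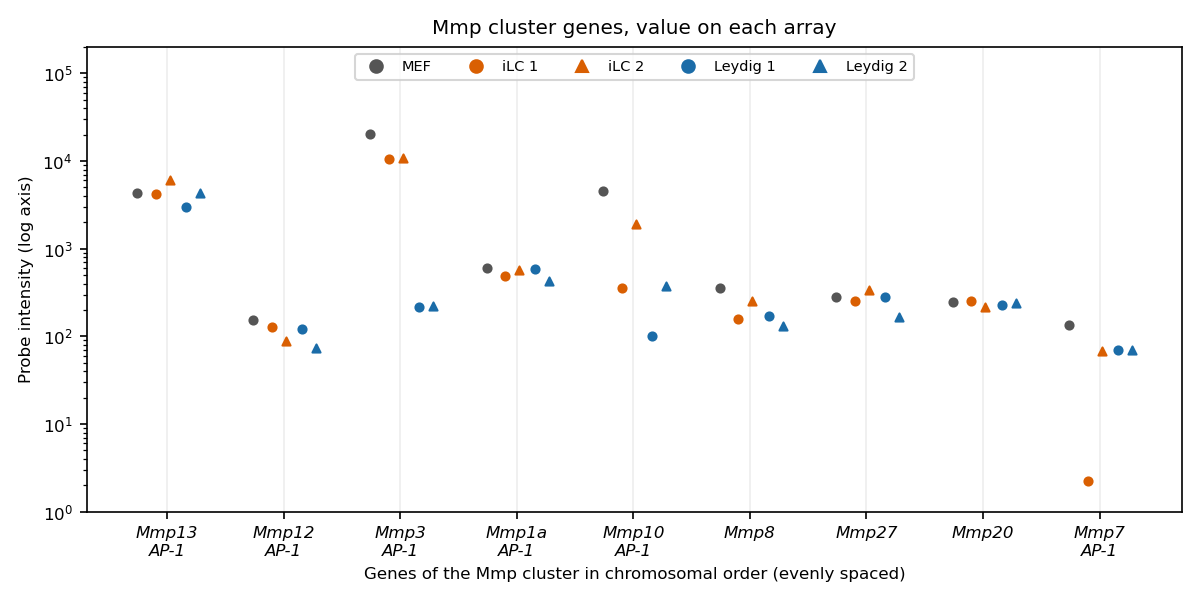
Probe intensity (log axis) of the 9 measured genes of the chromosome 9 cluster on each array, in chromosomal order and evenly spaced, with AP-1 under the 6 genes whose promoter window holds the AP-1 letters. Mmp3 separates the Leydig arrays (218 and 224) from the others (10666 to 20161), and Mmp13 does not separate the groups.

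The gelatinases read lower on the Leydig arrays. Mmp2 (gelatinase A), which degrades denatured and basement membrane collagen, read 73808 in MEF, 64595 and 86035 in the iLC pair, and 27996 and 19445 in the Leydig pair. The iLC pair bracketed the MEF array and both Leydig arrays lay below. The difference was 1.68 ± 0.35 between iLC and Leydig cells (adjusted p = 0.0327) and -1.66 ± 0.43 between Leydig cells and MEF (adjusted p = 0.0803), while iLC minus MEF was 0.014 ± 0.43 (adjusted p = 0.992). The call was lost when any of the 4 paired arrays was omitted, with log2(value + 1) and with aligned low ends (highest adjusted p = 0.165). Mmp9 (gelatinase B), an enzyme also made by leukocytes, read 2336 in MEF, 2105 and 4145 in the iLC pair, and 1081 and 956 in the Leydig pair. The iLC arrays were unequal, one near the MEF value and the other the highest of all 5, and both Leydig arrays were the lowest. The macrophage marker sum was likewise larger on the second iLC array (91092 against 44915) but larger still in MEF (170287). Neither difference of Mmp9 of 1 or more passed, at 1.52 ± 0.41 for iLC minus Leydig (adjusted p = 0.067) and -1.19 ± 0.50 for Leydig minus MEF (adjusted p = 0.262).

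Among the membrane-anchored enzymes, Mmp14 and Mmp17 were highest on the MEF array. Mmp14 (MT1-MMP), the transmembrane collagenase that activates proMMP2 together with TIMP2, read 192427 in MEF, 141599.6 and 53619 in the iLC pair, and 45169 and 48647 in the Leydig pair. The iLC arrays were far apart, one near the MEF value and the other near the Leydig values. Its differences from MEF of -1.14 ± 0.61 in iLC (adjusted p = 0.428) and -2.04 ± 0.61 in Leydig cells (adjusted p = 0.119) did not pass. Mmp17 (MT4-MMP), held by a lipid anchor, read 8919 in MEF, 4391 and 4146 in the iLC pair, and 2209.5 and 1413 in the Leydig pair. The groups stood apart in that order. Leydig minus MEF was -2.32 ± 0.43 (adjusted p = 0.0276), iLC minus MEF -1.06 ± 0.43 (adjusted p = 0.311) and iLC minus Leydig 1.26 ± 0.35 (adjusted p = 0.0725). Mmp24 (MT5-MMP) was flat at 16406 to 22615 and Mmp16 (MT3-MMP) at 413 to 617, and the lipid-anchored Mmp25 read 64.2 to 157.

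Of the remaining MMPs, Mmp23 was called. Mmp23, a membrane-bound enzyme freed by cleavage, read 7978 in MEF, 12642 and 17318 in the iLC pair, and 2459.8 and 1058 in the Leydig pair. Both iLC arrays were the highest and both Leydig arrays the lowest. The difference between iLC and Leydig cells was 3.18 ± 0.47 (adjusted p = 0.0101), and those against MEF did not pass (0.89 ± 0.58 in iLC, adjusted p = 0.522, and -2.29 ± 0.58 in Leydig cells, adjusted p = 0.0724). Mmp19 read 12755 on the MEF array, below the 18270.0 to 28298 of the other 4. Mmp21 (389 to 656) and Mmp28 (153 to 249) were dim and nearly level.

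The proteoglycan-cutting ADAMTS genes included both members called lower in iLC. Adamts1, a versican protease known for its role in ovulation, read 16989 in MEF, 7816 and 13139 in the iLC pair, and 39228 and 90051 in the Leydig pair. Both Leydig arrays were above the other 3, with replicate 2 the higher. The difference was -2.55 ± 0.50 for iLC minus Leydig (adjusted p = 0.0255), and 1.81 ± 0.61 for Leydig minus MEF (adjusted p = 0.164) and -0.74 ± 0.61 for iLC minus MEF (adjusted p = 0.622) did not pass. The call was lost with aligned low ends (adjusted p = 0.0579). Adamts15 read 2132 in MEF, 1903 and 1297 in the iLC pair, and 9487 and 6248 in the Leydig pair. Its iLC minus Leydig difference was -2.28 ± 0.38 (adjusted p = 0.0147), with 1.84 ± 0.46 for Leydig minus MEF (adjusted p = 0.0711) and -0.44 ± 0.46 for iLC minus MEF (adjusted p = 0.708).

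The aggrecanases Adamts4 and Adamts5 also read higher on the Leydig pair without passing. Adamts5, the neighbour of Adamts1 on chromosome 16, read 1256 in MEF, 955 and 394 in the iLC pair, and 7103 and 1267 in the Leydig pair. One Leydig array was high and the other matched the MEF array, and the differences were -2.26 ± 0.84 for iLC minus Leydig (adjusted p = 0.151), 1.25 ± 1.03 for Leydig minus MEF (adjusted p = 0.592) and -1.01 ± 1.03 for iLC minus MEF (adjusted p = 0.695). Adamts4 read 694 in MEF, 352 and 465 in the iLC pair, and 1962 and 826 in the Leydig pair (iLC minus Leydig -1.62 ± 0.47, adjusted p = 0.084). Adamts9 read 2091 to 4549 with the iLC arrays highest, and Adamts8, the neighbour of Adamts15 on chromosome 9, 258 to 329.9. The dimmer Adamts8 probe, at 83.3 to 281, gave -1.18 for iLC minus MEF and -1.28 for Leydig minus MEF. The 3 probes of Adamts20 gave differences of the same sign in each comparison, the brightest reading 423 to 1659.8 (Leydig minus MEF -1.23 ± 0.64, adjusted p = 0.369).

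Of the procollagen-trimming and cartilage-protein ADAMTS genes, Adamts12 was called. Adamts12, which cuts cartilage oligomeric matrix protein, read 390.4 in MEF, 592 and 908 in the iLC pair, and 188 and 96.7 in the Leydig pair, below the array median throughout. The groups stood apart, with a difference of 2.31 ± 0.42 between iLC and Leydig cells (adjusted p = 0.0202) against 0.88 ± 0.51 for iLC minus MEF (adjusted p = 0.471) and -1.42 ± 0.51 for Leydig minus MEF (adjusted p = 0.193). When values under the 20th percentile were raised to it the difference was 1.69, and averaging both probes gave 1.80, the dimmer one alone 1.29. Adamts7, its relative, was level at 3665 to 5236. Adamts14, a procollagen N-proteinase, read 3919.6 in MEF, 7363 and 4612 in the iLC pair, and 2272 and 1135 in the Leydig pair. Its iLC minus Leydig difference was 1.85 ± 0.45 (adjusted p = 0.0517), and Leydig minus MEF was -1.28 ± 0.55 (adjusted p = 0.273). Adamts3, another procollagen N-proteinase, was dim at 209 to 315, and its other probe gave 1.20 where the chosen one gave about no difference between iLC and Leydig cells.

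Adamts16, whose substrates are little known, was higher in iLC than in Leydig cells. It read 175 in MEF, 1509 and 894 in the iLC pair, and 96.4 and 60.5 in the Leydig pair. Both iLC arrays were well above the other 3, where the probe lay at the 4.8th to 11.4th percentile. iLC minus Leydig was 3.67 ± 0.40 (adjusted p = 0.00357), or 2.34 when values under the 20th percentile were raised to it. iLC minus MEF was 2.63 ± 0.49 (adjusted p = 0.0863), the smallest adjusted p of any member in that comparison, and Leydig minus MEF was -1.04 ± 0.49 (adjusted p = 0.311). Adamts6, whose substrates are less well known, read 1592 in MEF, 1411 and 1381 in the iLC pair, and 551 and 439.7 in the Leydig pair. The Leydig pair was low, with iLC minus Leydig at 1.47 ± 0.31 (adjusted p = 0.0328), Leydig minus MEF at -1.66 ± 0.38 (adjusted p = 0.0553) and iLC minus MEF at -0.19 ± 0.38 (adjusted p = 0.859). Its call, too, failed whenever any of the 4 paired arrays was omitted. Adamts10, known for a role in microfibrils, and Adamts19 read lower on both iLC arrays than elsewhere without passing. Adamts10 was 4139.6 and 2595 in iLC against 5518 to 9489 elsewhere (iLC minus Leydig -1.14, adjusted p = 0.146, and iLC minus MEF -1.17, adjusted p = 0.337). Adamts19 was 370.4 and 486 against 937 to 1148 (iLC minus Leydig -1.14, adjusted p = 0.0736, and iLC minus MEF -1.40, adjusted p = 0.174). Adamts13, the von Willebrand factor protease, read 174 to 420.1, Adamts17 286 to 561 and Adamts18 95.4 to 211.

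Among the inhibitors, Timp1 and Timp3 were highest in iLC and lowest in Leydig cells. Timp1, the inhibitor of most secreted MMPs, read 302376 in MEF, 640400.1 and 588835 in the iLC pair, and 135529.8 and 63433 in the Leydig pair. The 3 groups did not overlap, with a difference of 2.73 ± 0.43 between iLC and Leydig cells (6.62-fold, adjusted p = 0.0128), against 1.02 ± 0.53 for iLC minus MEF (adjusted p = 0.413) and -1.71 ± 0.53 for Leydig minus MEF (adjusted p = 0.131). On both iLC arrays the Timp1 probe stood above the 99.9th percentile of all probes. Timp3, the matrix-bound inhibitor, read 139593 in MEF, 239089 and 198391 in the iLC pair, and 27648 and 26645 in the Leydig pair. Here the pairs were tight. iLC exceeded Leydig cells by 3.00 ± 0.31 (8.02-fold, adjusted p = 0.00294), Leydig minus MEF was -2.36 ± 0.38 (adjusted p = 0.0183) and iLC minus MEF was 0.64 ± 0.38 (adjusted p = 0.474). Timp4 read 466 in MEF, 1459 and 696 in the iLC pair, and 227 and 482 in the Leydig pair, and neither 1.56 ± 0.51 for iLC minus Leydig (adjusted p = 0.114) nor 1.09 ± 0.63 for iLC minus MEF (adjusted p = 0.469) passed. Timp2, the partner of Mmp14 in proMMP2 activation, read 147 to 215 on all 5 arrays, at the 13.9th to 20.5th percentile. Whether its probe reports the gene was not tested.

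Between iLC and MEF, which may also differ in medium and culture time, 0 of 43 members passed limma's test, against 0.571% of all genes (0.283% higher and 0.288% lower). At an unadjusted p under 0.05 there were 4 members, namely Adamts16 above MEF and Mmp3, Mmp17 and Adamts19 below, and 3006 of the 19084 genes. Mmp3 had a difference of -0.91 ± 0.36 (adjusted p = 0.307). Both iLC arrays lay above the MEF array for 15 members and below it for 21, against 34% and 44.4% of all genes. The members' median was -0.12, and that of all genes was -0.11. With quantile normalization 1 member, Adamts16, was called (3.07, adjusted p = 0.0321). The single MEF array was taken to vary like the iLC and Leydig pairs.

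Between Leydig cells and MEF, Mmp3, Mmp17 and Timp3 were lower in Leydig cells and no member was higher. These were 6.98% of the members, against 7.38% of all genes (3.39% higher and 3.99% lower), a share close to the background. The count depended on the setting: 7 members with log2(value + 64) (16.3% against 9.09% of all genes), and 7 of the 26 that read above the median on an array (26.9% against 13.2%). That filter can admit a gene through the group where it is high, so its share is no separate support. Mmp3, for example, lay at the 89.1st percentile in MEF and the 20.5th and 20.4th on the Leydig arrays. Both Leydig arrays lay above the MEF array for 8 members and below it for 28, against 33% and 44.1% of all genes. The members' median was -0.37 (MMP genes -0.51, ADAMTS genes -0.15, TIMP genes -1.09) and that of all genes -0.10. Mmp3 kept its call under all 13 alternatives, Timp3 lost its call without either Leydig array (adjusted p = 0.0689 and 0.094), and Mmp17 lost it without any 1 of the 4 paired arrays. Both comparisons with MEF share its single array.

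Other genes of matrix proteolysis were taken from 8 lists. Between iLC and Leydig cells, 18 of the 74 genes measured from them were called, against 11.4% of all genes (5.74% higher and 5.69% lower). Of 10 measured activators 4 were higher and 0 lower, led by Plat, the tissue plasminogen activator. Plat read 42101 in MEF, 82012 and 98077 in the iLC pair, and 5608 and 3148 in the Leydig pair (4.41 ± 0.39, adjusted p = 0.00197), and Leydig minus MEF was -3.32 (adjusted p = 0.0133). The proprotein convertase Pcsk6 (2.79, adjusted p = 0.0138) and the membrane serine protease St14 (2.10, adjusted p = 0.0158) were also higher in iLC. Plaur, the urokinase receptor, was lower in Leydig cells than in MEF by -2.75 (adjusted p = 0.0494). Among 9 other inhibitors and modulators, the procollagen proteinase enhancer Pcolce2 (3.69, adjusted p = 0.00843) and the Kunitz inhibitor Tfpi2 (2.47, adjusted p = 0.00941) were higher in iLC than in Leydig cells and the cathepsin inhibitor Cst3 was lower (-1.32, adjusted p = 0.0438). Both Pcolce2 and Tfpi2 were also lower in Leydig cells than in MEF (-3.32, adjusted p = 0.031, and -3.67, adjusted p = 0.00787).

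Of 12 genes of the ADAM family, some of whose proteins shed membrane proteins, 2 were higher in iLC than in Leydig cells and 0 lower. These were Adam19 (3.46, adjusted p = 0.0131) and Adam9 (1.55, adjusted p = 0.0414). Adam8, a leukocyte-rich member, read 35879 in MEF, 6987 and 10277 in the iLC pair, and 4071 and 4153 in the Leydig pair. Its order of groups was that of the macrophage marker sum (170287, then 44915 and 91092, then 23953 and 23561), but not that of Ptprc within that sum. The fibroblast and smooth muscle marker sums had the same order of groups, so the order does not single out a cell type. Adam19 and Adam8 were lower in Leydig cells than in MEF, by -4.12 (adjusted p = 0.0201) and -3.12 (adjusted p = 0.0106). The macrophage-rich cathepsin Ctss, the 1 called gene of 7 in its list, read 27888 in MEF against 3845 to 5146 elsewhere, with iLC and Leydig overlapping (Leydig minus MEF -2.66, adjusted p = 0.0151). Among 5 astacin proteases, the procollagen C-proteinases Bmp1 (2.61, adjusted p = 0.0393) and Tll1 (2.78, adjusted p = 0.00632) were higher in iLC than in Leydig cells. The ADAMTS-like genes Thsd4 (3.88, adjusted p = 0.00154) and Adamtsl1 (2.66, adjusted p = 0.0102) were higher as well, 2 of 6. Thsd4 read 597 in MEF and 2754 and 2638 in the iLC pair.

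ADAMTS substrates moved in both directions between iLC and Leydig cells. Vcan, the versican gene, read 9409 in MEF, 28999 and 15846 in the iLC pair, and 2569.6 and 842 in the Leydig pair (3.85 ± 0.60, adjusted p = 0.0116). Acan, the aggrecan gene, read 418 in MEF, 299 and 388 in the iLC pair, and 1600.2 and 1651 in the Leydig pair (-2.20 ± 0.31, adjusted p = 0.00895). Against Leydig cells, iLC thus read higher for versican and lower for aggrecan and the versican protease gene Adamts1. Neither Vcan (adjusted p = 0.496) nor Adamts1 (adjusted p = 0.622) passed between iLC and MEF. Adamts9, also among the proteoglycan-cutting genes, read highest on the iLC arrays without passing. A link between protease and substrate genes was not tested. Of 12 substrate and link protein genes, 2 were higher, the other being Hapln4 (4.15, adjusted p = 0.00181), and 1 lower. Of 13 AP-1, Ets and Runx genes, the Ets factors Etv4 (2.26, adjusted p = 0.0147) and Ets2 (1.78, adjusted p = 0.0421) were higher in iLC. Between Leydig cells and MEF, 14 of the 74 genes were called, against 7.38% of all genes, and 2 of them rose, namely Acan (1.92, adjusted p = 0.0362) and Adam23 (2.92, adjusted p = 0.0246). In the other direction 2 activators, 2 other inhibitors, 3 ADAM genes, 1 astacin, 1 ADAMTS-like gene, 1 substrate gene, 1 Ets factor and 1 cathepsin fell. Between iLC and MEF, 0 of the 74 measured genes of the 8 lists passed limma's test, against 0.571% of all genes, and 17 had an unadjusted p under 0.05, against 15.8% of all genes. None of these lists was tested as a set.

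**Figure D4:**
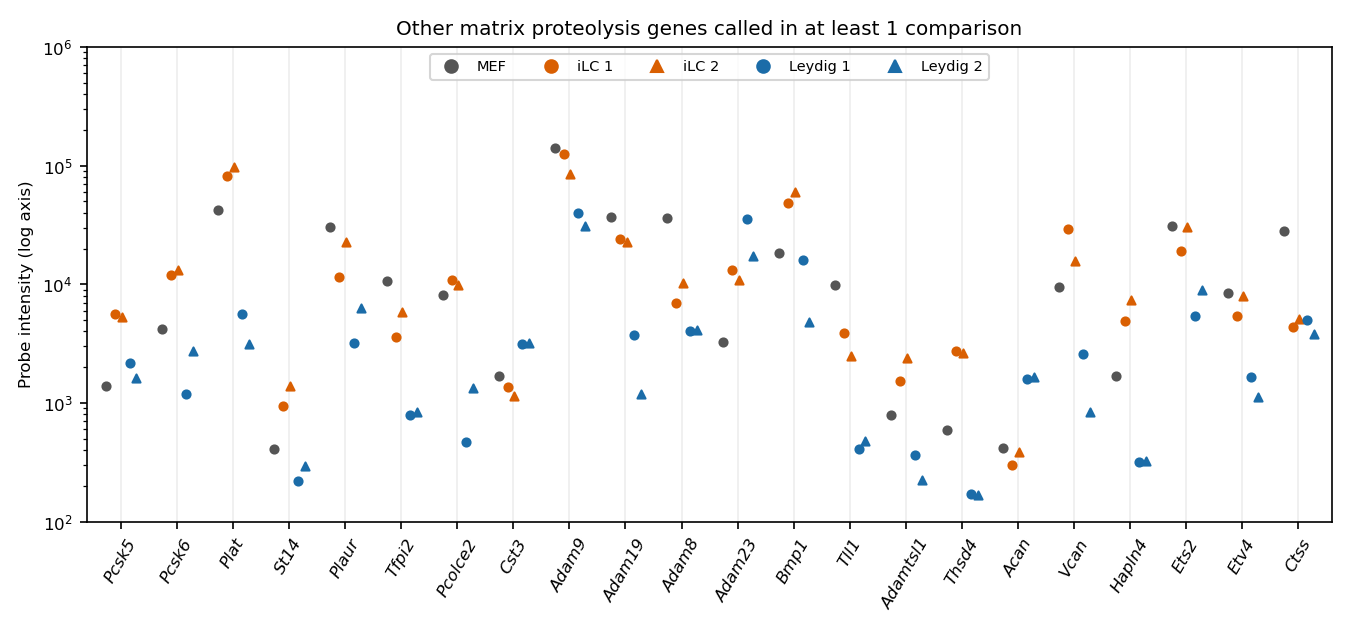
Probe intensity (log axis) on each array of the genes from the 8 further lists that were called in at least 1 comparison, grouped by list. Plat, Tfpi2, Adam19, Tll1 and Hapln4 sit lower on both Leydig arrays than on the other 3, and Acan higher.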

How the data were processed

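The deposited values are linear intensities per probe, 1 Cy5 sample per array per the labels' protocols; how the authors corrected background or normalized is not stated in them. Of 26423 probes, 21876 carried 1 gene symbol in the platform annotation, 0 several and 4547 none, and all 48 member probes kept their symbol in the RefSeq gene table (GRCm38.p6). 0 columns belonged to no sample. Samples were grouped by title. Values below 0 were set to 0 and 16 was added before log2. One mean per group was fitted over all 5 arrays with limma 3.58.1 in R 4.3.3 (lmFit, eBayes; 2 residual and 4.19 prior degrees of freedom), two-sided, with adjustment over 19084 genes. The script was tested on simulated data. Alternatives changed the pseudocount (1 or 64), scaling, low ends, floor, filter, probe choice, prior trend, arrays left out and pairing. The number of arrays limits the precision. Every member is named, with all its values or its range. From further lists, the called genes with the largest differences are named, at most 3 for each list and comparison. The Fos and Jun family genes and the markers Pdgfra, Twist1, Prrx1, Prm2, Ddx4, Acta2, Tagln and Ptprc were named after their values were seen. Members and lists were chosen with earlier results of these data known. Promoter sequences are RefSeq's. Figures were drawn with matplotlib 3.10.9.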

Additional observations from a re-analysis of the deposited data

How the results depend on the processing

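Among 787 values of 58 member differences under alternatives, 711 kept direction and side of the threshold, 32 lost a call, 42 gained one and 2 changed sign. Both sign changes were Mmp2 between iLC and MEF, 0.014 with all arrays, -0.044 with arrays centred on their medians and -0.19 without iLC replicate 2 (0.22 without iLC replicate 1). Genes called between iLC and MEF numbered 109 (54 higher, 55 lower), and 9 with log2(value + 1), 287 with log2(value + 64), 346 with median centring (131 higher, 215 lower), 363 with quantile normalization, 6 with aligned low ends (6 higher, 0 lower), 328 with the floor, 275 with the filter on dim genes and 249 with a prior trend. The median of all genes moved there from -0.11 to 0.05 with quantile normalization and 0.12 with aligned low ends. Members called in that comparison were 0, and 1 with quantile normalization. Members called between Leydig cells and MEF were 3, and 7 with log2(value + 64) and with the filter, 6 with median centring, quantile normalization and a prior trend (14% of members, against 9.01%, 10.1% and 9% of all genes), and 5 with the floor (11.6% against 9.18%). Leaving out 1 array gave 0 genes and 0 members between iLC and MEF with limma (2137 to 2881 genes at an unadjusted p under 0.05), 704 to 1267 genes and 2 to 7 members between iLC and Leydig cells (10 members with all arrays), and 149 to 963 genes and 1 to 3 members between Leydig cells and MEF; it takes 1 of 2 residual degrees of freedom. The replicate number used as a block gave 3443 genes and 16 members between iLC and Leydig cells, against 2181 and 10. Deviations of same-numbered arrays correlated at 0.0552 and nothing in the labels makes the numbers a pairing. Causes of the other changes were not tested. Signal over background could not be set, which limits every dim probe.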
